A study of Mus musculus with 4 samples.

Results

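Neuregulins and other secreted or shed factors that act on nerves were examined in cultured tumor cells from mouse pancreatic cancers, as a list of 10 genes: the neuregulins Nrg1, Nrg2 and Nrg4, the neuropeptides Npy and Ucn, the growth factors Fgf9, Mdk and Ptn, the cytokine Cntf and the adhesion molecule L1cam. The genes were chosen by name, with earlier results of these data known. Each was read from the array cluster that carries its symbol alone, taking the brightest such cluster over the 4 arrays. A value was obtained for 9 of the 10 listed genes, out of 19938 genes measured in this way. Cntf lies only on a cluster with several symbols, and no value is given for it.

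These factors are among the signals by which a tissue draws, feeds and guides nerve fibres and their glia. Neuregulins bind ErbB receptor tyrosine kinases and are survival and growth signals of Schwann cells. Midkine and pleiotrophin, the products of Mdk and Ptn, are heparin-binding proteins that promote outgrowth of neurites, and L1cam is carried by growing axons and by tumor cells that move along nerves. In pancreatic cancer, growth of tumor cells along and into nerves is called neural invasion.

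The study compared tumor cells of low and of high neuroinvasive potential. Cells of both genotypes carried the Ela-TGFa transgene, in which an elastase promoter drives the growth factor TGF-alpha in acinar cells, a Cre driver allele that the labels spell Ptg1a+/CRE, and Trp53fl/fl, so that the tumor suppressor p53 was floxed in all 4 lines. TPC lines (TPC18645 and TPC20223) carried these alleles only, and TPAC lines (K459 and TCPA18654) carried p65fl/fl in addition, a floxed allele of the NF-kappaB subunit RelA/p65. Tumor tissue was digested and the cells were grown in medium with serum, without treatment. One array was run per line, with 2 lines per genotype. The sources used here do not say whether both lines of a genotype stem from different mice or are single clones. The p values therefore measure only the spread between these 4 arrays.

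Values are log2 signals made by RMA, a method that corrects background and sets all arrays to one common distribution, so that lines of unequal total RNA would look alike. The array medians lay between 7.19 and 7.26. TPC18645 and TCPA18654, lines of different genotypes, were near twins, with 54 genes apart by a log2 difference of 1 or more, and TPC20223 stood apart from the other lines. Of 7 ductal markers, which should mark pancreatic cancer cells, 5 were low in TPC20223, where Krt19 had a log2 signal of 6.08, far under the 11.74 to 12.65 of the other lines. The exceptions were Epcam (6.43 there, 6.82 in TPC18645) and Sox9, which was higher in TPC20223 (10.89) than in TPC18645 (10.21) and TCPA18654 (10.14). In such bulk samples, fewer cells of a type and less RNA per cell cannot be told apart. Signals of Rela, the gene floxed in TPAC, were 11.12 in TPC18645 and 10.70 in TPC20223, against 10.82 in K459 and 11.10 in TCPA18654. Because the sources used here do not name the deleted exons, these signals do not check the genotype labels.

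The files hold no detection call. To state which factors lay near background, each value was set against 1228 reference genes on the same array, namely olfactory, vomeronasal and taste receptors, which serve sensory organs. The limit was the 95th percentile of these genes, which was a log2 signal of 6.33 in TPC18645 and 6.25 in TPC20223, against 6.29 in K459 and 6.45 in TCPA18654.

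Promoter sequence is shown for Ptn and L1cam, whose signals were high in the same single line, and for Npy, which was above the limit in all 4 lines. RefSeq windows of GRCm38.p6 were at hand for 7 of the 10 listed genes, and each runs from 250 bases before to 50 bases after an annotated gene start. The 250 bases before the start are printed 5′ to 3′ in lower case, with matches to the motif GGGCGG of the factor Sp1 in capitals. The stretch for Ptn is chr6:36810180-36810429 on the minus strand, that for L1cam is chrX:73880835-73881084 on the minus strand, and that for Npy is chr6:49822460-49822709 on the plus strand.
Ptn: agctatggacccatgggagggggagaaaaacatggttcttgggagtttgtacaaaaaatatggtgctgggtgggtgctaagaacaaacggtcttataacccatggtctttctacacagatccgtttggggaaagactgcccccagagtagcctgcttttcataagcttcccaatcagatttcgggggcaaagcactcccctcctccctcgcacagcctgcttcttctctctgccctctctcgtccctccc
L1cam: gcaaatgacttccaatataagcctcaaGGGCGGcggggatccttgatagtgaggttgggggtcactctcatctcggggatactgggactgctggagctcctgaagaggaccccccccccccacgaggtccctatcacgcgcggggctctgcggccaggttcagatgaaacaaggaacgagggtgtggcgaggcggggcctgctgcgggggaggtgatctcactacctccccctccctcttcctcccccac
Npy: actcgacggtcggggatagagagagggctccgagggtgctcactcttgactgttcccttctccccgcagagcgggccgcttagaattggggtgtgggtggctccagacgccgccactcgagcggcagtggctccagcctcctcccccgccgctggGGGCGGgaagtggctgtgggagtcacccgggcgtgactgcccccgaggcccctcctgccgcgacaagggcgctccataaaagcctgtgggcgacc

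Both strands of each window were searched for CAGGTG (an E-box), TGANTCA (AP-1), GGGCGG (Sp1), TATAAA (the TATA box), TGACG (the core of the cAMP response element) and the NF-kB motif. Over all 32851 windows, 20.2% held CAGGTG, 7.81% held TGANTCA, 35.7% held GGGCGG, 13.6% held TATAAA, 20.8% held TGACG and 4.51% held the NF-kB motif. The Ptn window held a match to none of these motifs. L1cam has 2 annotated starts and thus 2 overlapping windows, of which the one lying farther upstream is printed. In it GGGCGG began at base 28, and a further match on the opposite strand began at base 269, past the printed stretch. The other window holds only the latter match, which begins there at base 225. In the Npy window GGGCGG began at base 156. The GC content of these windows was 52.0% for Ptn, 67.0% for L1cam (the printed start) and 68.0% for Npy. With no match in the Ptn window, Ptn and L1cam could not share any of these motifs. Motif matches did not overlap each other in these windows.

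**Figure D1:**
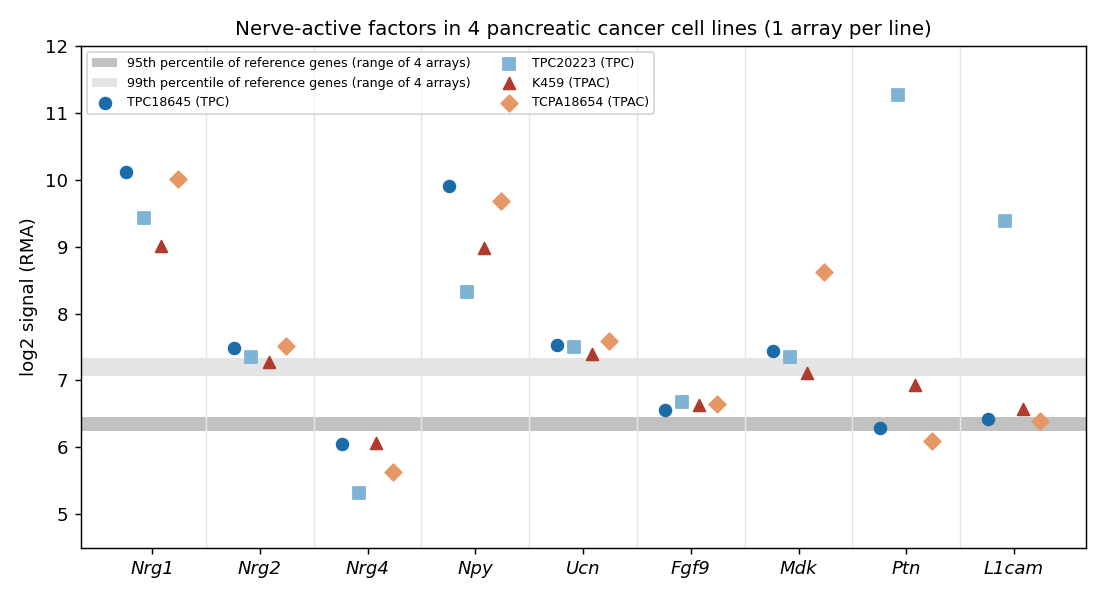
Log2 signal (RMA) of the 9 measured factors in each of the 4 lines, 1 point per line and array. Bands span, over the 4 arrays, the 95th and 99th percentiles of the 1228 reference genes. Nrg1 and Npy lay above both bands in all lines, Nrg4 lay below both in all lines, and Ptn and L1cam lay above both bands in TPC20223 only.

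Nrg1 and Npy were the factors with clear signal in all 4 lines, Nrg2 and Ucn had steady signals between 7.27 and 7.59, and Mdk stood out in 1 TPAC line. Ptn and L1cam were high in 1 TPC line only, Fgf9 lay just above the limit, and Nrg4 lay below it. In no factor did the genotypes separate, that is, have both TPAC lines above or both below the 2 TPC lines (0 of 9). Among all genes, both TPAC lines were above both TPC lines in 13.7% and below them in 13.3%.

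Nrg1, the neuregulin on which Schwann cells depend, had a log2 signal of 10.11 in TPC18645 and 9.43 in TPC20223, against 9.01 in K459 and 10.01 in TCPA18654. All 4 values were at least 2.72 above the limit of their array. The near-twin lines were highest and K459 was lowest, and the genotypes overlapped. The highest line was 2.14-fold above the lowest. TPC18645 and TCPA18654 differed by 0.10, less than the 0.45 that 95% of the reference genes did not exceed between these arrays. TPAC lines averaged 9.51 ± 0.71 and TPC lines 9.77 ± 0.48 (SD, n = 2 lines each), a log2 difference of -0.26 (SE 0.46, 95% interval -1.57 to 1.05, limma adjusted p = 0.989).

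Nrg2, a second ErbB ligand known mainly from the nervous system, had signals of 7.48 in TPC18645 and 7.35 in TPC20223, against 7.27 in K459 and 7.52 in TCPA18654. No line stood out, since the range of 0.25 was below the median range of the reference genes (0.27). The log2 difference between TPAC and TPC was -0.02 (SE 0.16, 95% interval -0.47 to 0.43, limma adjusted p = 0.996). Nrg2 lay 0.98 to 1.15 above the limit, but markers of islet, leukocyte and endothelial cells, which these cultures should lack, reached the same level. Of 18 such markers measured, 9 were above the limit in all 4 lines and 3 kept between 7 and 8 in every line, among them the islet hormone gene Sst at 7.19 to 7.34.

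Nrg4, an ErbB4 ligand, lay below the limit in every line, with signals of 6.05 in TPC18645 and 5.32 in TPC20223, against 6.07 in K459 and 5.63 in TCPA18654. It was the only measured factor near background in all 4 lines by this limit. The size of its differences between lines is therefore not exact. TPAC and TPC overlapped (log2 difference 0.17, SE 0.33, limma adjusted p = 0.989).

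In the list of neuregulin receptors and shedding proteases, which includes the ligand Nrg3, 7 of 9 genes were above the limit in at least 1 line. The same 7 were above it in all lines. Of all 19938 genes, at least 15027 were above it in at least 1 line. Egfr, an ErbB family member, had signals of 11.68 in TPC18645 and 10.21 in TPC20223, against 10.89 in K459 and 11.49 in TCPA18654. Erbb2, of the same family, had 9.26, 9.77, 9.85 and 9.12 in the same order of lines. Erbb3, which binds Nrg1, had 8.04 in TPC18645 and 6.72 in TPC20223, against 9.44 in K459 and 7.84 in TCPA18654. Thus K459, lowest in Nrg1, was highest in Erbb3. Adam19, a protease that cleaves neuregulin precursors, had 7.42, 9.29, 7.93 and 7.31 in the same order of lines. Erbb4, the receptor of Nrg4, was below the limit in all lines at 5.66 to 5.94.

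Npy, a cotransmitter of sympathetic nerves, had a log2 signal of 9.90 in TPC18645 and 8.32 in TPC20223, against 8.98 in K459 and 9.68 in TCPA18654. All lines lay at least 2.07 above their limit. The near twins were again highest and TPC20223 lowest, 2.99-fold below TPC18645, so that the highest and lowest lines were both TPC. TPAC lines averaged 9.33 ± 0.50 and TPC lines 9.11 ± 1.12 (SD, n = 2 lines each), a log2 difference of 0.22 (SE 0.64, 95% interval -1.62 to 2.06, limma adjusted p = 0.989). Pam, which amidates neuropeptides, had signals of 11.31 in TPC18645 and 10.47 in TPC20223, against 11.28 in K459 and 11.12 in TCPA18654. Npy4r, a receptor of the family, had 6.98, 6.22, 7.09 and 6.89, so its value in TPC20223 was below the limit.

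Ucn, a peptide of the corticotropin-releasing factor family, was flat at 7.53 in TPC18645 and 7.50 in TPC20223, against 7.39 in K459 and 7.59 in TCPA18654. Its range of 0.20 was smaller than that of most genes (16.1% of all genes had a smaller one), and its level lay in the range of the markers of absent cell types given for Nrg2. The log2 difference between TPAC and TPC was -0.03 (SE 0.14, 95% interval -0.43 to 0.38, limma adjusted p = 0.996). The urocortin receptor gene Crhr1 kept between 6.88 and 7.12, and Crhbp, which encodes a binding protein of these peptides, between 6.27 and 6.45. Crhr1 was above the limit in all 4 lines but below the 99th percentile of the reference genes in each. Crhbp was above the limit in 2 lines only.

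Fgf9, a growth factor that signals through FGF receptors, was the steadiest of the factors, with 6.56 in TPC18645 and 6.67 in TPC20223, against 6.64 in K459 and 6.65 in TCPA18654. The values lay only 0.20 to 0.42 above the limit, and below the 99th percentile of the reference genes (7.06 to 7.34) in all 4 lines. With that percentile, or with the 40th percentile of all genes, as the limit, both Nrg4 and Fgf9 counted as near background. The log2 difference was 0.03 (SE 0.13, 95% interval -0.33 to 0.39, limma adjusted p = 0.995). Its receptor genes did vary: Fgfr2 had signals of 7.19 in TPC18645 and 10.86 in TPC20223, against 6.94 in K459 and 7.15 in TCPA18654. Fgfr1 was also highest in TPC20223 at 11.77, with 9.09, 10.37 and 9.25 in TPC18645, K459 and TCPA18654, whereas Fgfr3 was lowest in K459 at 7.42 and lay between 8.23 and 8.64 elsewhere.

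For Cntf, a cytokine known from Schwann cells, only the receptor complex can be described. Il6st, the shared signalling subunit gp130, had signals of 11.73 in TPC18645 and 12.47 in TPC20223, against 11.09 in K459 and 11.60 in TCPA18654. Cntfr, the subunit that binds Cntf, had 6.39, 9.79, 6.48 and 6.48 in the same order, so that it was high in TPC20223 and near the limit in the other lines.

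Mdk had a log2 signal of 7.44 in TPC18645 and 7.35 in TPC20223, against 7.11 in K459 and 8.62 in TCPA18654. TCPA18654 was the high line and the other 3 lay within 0.33 of each other. Those 3 values were at the level of the markers of absent cell types given for Nrg2, so fold sizes against them are not exact. K459, the other TPAC line, was lowest, 2.85-fold below TCPA18654, so the genotypes overlapped. Between the near twins TPC18645 and TCPA18654, Mdk was the 1 factor apart by a log2 difference of 1 or more, where 0.271% of all genes were. It was also 1 of 4 genes (0.0201% of all) that exceeded each other line by that much in TCPA18654. The others, named after their values were seen, were Gpm6a, a neuronal membrane glycoprotein, Tm4sf4, a tetraspan membrane protein, and Cyp11a1, an enzyme of steroid synthesis. TPAC lines averaged 7.87 ± 1.07 and TPC lines 7.40 ± 0.06 (SD, n = 2 lines each), a log2 difference of 0.47 (SE 0.57, 95% interval -1.15 to 2.09, limma adjusted p = 0.989).

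Ptn, the close relative of Mdk, had a log2 signal of 6.29 in TPC18645 and 11.26 in TPC20223, against 6.93 in K459 and 6.09 in TCPA18654. TPC20223 was far above the rest, 5.01 above the limit of its array, while TPC18645 and TCPA18654 lay below their limits. The highest value was 36.0-fold above the lowest, a size that is not exact because the low values are near background. Of all genes, 99.6% had a smaller range over the lines. TPAC lines averaged 6.51 ± 0.59 and TPC lines 8.78 ± 3.51 (SD, n = 2 lines each), a log2 difference of -2.27 (SE 1.85, 95% interval -7.54 to 3.01, limma adjusted p = 0.989). Without TPC20223 the difference was 0.22.

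L1cam was likewise high in TPC20223 only, with 6.42 in TPC18645 and 9.39 in TPC20223, against 6.58 in K459 and 6.39 in TCPA18654. Its value in TPC20223 was 3.14 above the limit, and the other 3 lay between 0.06 below and 0.29 above theirs. The highest line was 8.0-fold above the lowest, again against values near background. TPAC lines averaged 6.49 ± 0.13 and TPC lines 7.91 ± 2.10 (SD, n = 2 lines each), a log2 difference of -1.42 (SE 1.10, 95% interval -4.55 to 1.71, limma adjusted p = 0.989). Without TPC20223 the difference was 0.07.

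Ptn and L1cam were the 2 of 9 factors that exceeded each other line in TPC20223 by a log2 difference of 1 or more, as did 4.24% of all genes. By this excess Ptn, at 4.33 over the next line, ranked 23 among all genes and L1cam, at 2.81, ranked 142 of the 846 past 1. Ductal markers moved with these values: 5 of 7 ductal markers were lower there by that much than in each other line, all but Epcam and Sox9, and the list's mean log2 signal was 7.38 against 11.09 to 12.25. Of 7 fibroblast markers, Pdgfra, Col1a1 and Col1a2 were higher there by as much (list mean 9.56 against 8.11 to 8.58), and Lum was near background in all lines. Pdgfrb was also highest in TPC20223, at 11.35, but by only 0.82 over the next line. Dcn and Thy1 did not follow. Dcn was 9.35 in TPC20223 and higher in the near twins (11.03 and 10.99), and Thy1 was 7.23 in TPC20223 and 8.86 in K459. None of 5 Schwann cell markers was higher there by as much (list mean 6.85 against 7.24 to 7.45), with Sox10 at 6.90 to 7.09 and S100b at 6.12 to 6.32. Of 7 neuronal markers 1 was, Syt1, at 7.79 (list mean 7.18 against 6.80 to 7.0). The part of these markers in the Ptn and L1cam values was not tested.

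Several receptors and partners of Ptn and L1cam were also highest in TPC20223. Ptprz1, the receptor phosphatase that binds pleiotrophin and midkine, had log2 signals of 4.39 in TPC18645 and 10.30 in TPC20223, against 6.39 in K459 and 4.27 in TCPA18654. Sdc3, a heparan sulfate proteoglycan that binds pleiotrophin, had 9.41, 10.97, 8.57 and 9.28, and the integrin subunit gene Itgb1 was flat at 11.43 to 11.68. In the L1 family, Chl1, a close homolog of L1cam, had 4.62, 8.42, 4.73 and 4.79, so it was above the limit in TPC20223 only. Ank2, an ankyrin that anchors L1 proteins to the cytoskeleton, had 7.10, 10.34, 7.79 and 7.34. Cd24a, a surface glycoprotein that binds L1, ran the other way, with 12.91, 10.73, 12.70 and 12.99.

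**Figure D2:**
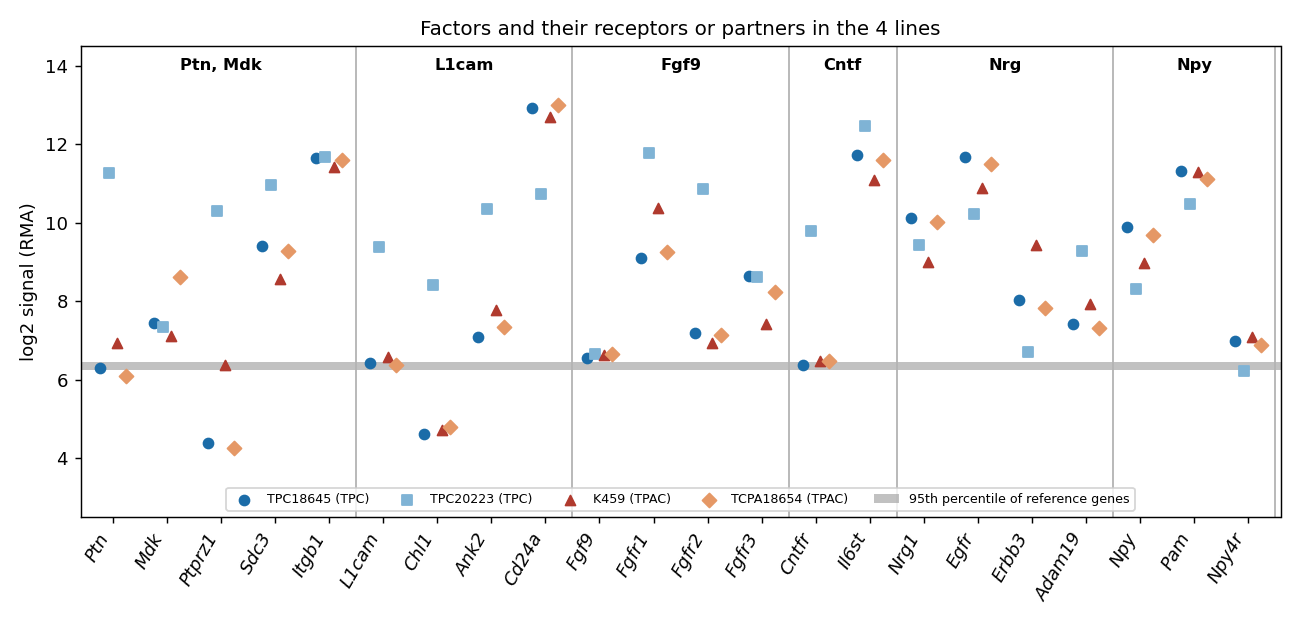
Log2 signal (RMA) of Ptn, Mdk, L1cam, Fgf9, Nrg1 and Npy and of some of the receptors or partners named in the text, grouped by factor, 1 point per line. The gray band spans the 95th percentile of the reference genes over the 4 arrays. Ptprz1, Chl1, Fgfr2 and Cntfr were highest in TPC20223, as were Ptn and L1cam, whereas Egfr, Erbb3 and Cd24a were lowest there.

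Over the 7 lists of receptors and partners, 67 of 69 genes were measured and 55 were above the limit in at least 1 line. Of all 19938 genes, at least 15027 were. Of the 67, 30 were higher and 36 lower in TPAC, with a median log2 difference of -0.045 against 0.015 for all genes. By limma 0 passed, and 0 had an unadjusted p under 0.05. A fit without TPC18645 sets TPC20223 alone against the TPAC lines, so its p values cannot tell genotype from line. TPC20223 exceeded each other line by a log2 difference of 1 or more in 11 of the 67 (Adam19, Fgfr1, Fgfr2, Cntfr, Lifr, Ptprz1, Sdc3, Chl1, Cntn1, Itga5 and Ank2), against 4.24% of all genes. It lay as far below each of them in 4 (Adam10, Erbb3, Ezr and Cd24a), against 2.95% of all genes and 0 of the 9 factors.

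Between genotypes, 0 of 9 factors passed limma (adjusted p up to 0.05, log2 difference at least 0.58), against 0.0% of all genes (0 of 19938). At an unadjusted p under 0.05 with the same limit on size, 38 genes were higher and 46 lower in TPAC, and none of the 9 factors had such a p. Single lines moved the differences. Without TPC18645 the log2 difference was -2.90 for L1cam and -4.75 for Ptn, and without TPC20223 it was 0.07 and 0.22. That of Mdk was 1.23 without K459 and -0.28 without TCPA18654. Such fits leave 1 line in a genotype, so their p values cannot tell genotype from line and are not given. With 2 lines per genotype the smallest p that an exact permutation test (two-sided) allows is 0.33. The intervals of Ptn, L1cam, Npy, Mdk and Nrg1 were wide enough to hold differences of 1 or more in either direction. Those of Fgf9, Ucn and Nrg2 stayed within 0.47 of 0. Fgf9 lay near the reference genes, and Ucn and Nrg2 at the level of markers of absent cell types. At such low signals, narrow intervals do not show that expression was alike.

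**Figure D3:**
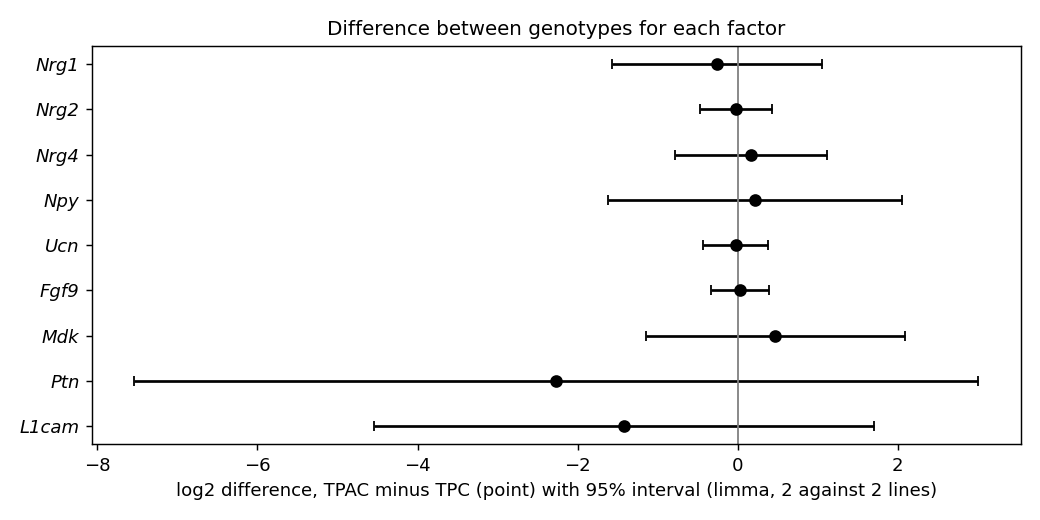
Log2 difference, TPAC minus TPC, of each factor (point) with its 95% interval from limma (bar), 2 lines against 2. All 9 intervals include 0, and the interval of Ptn is the widest, from -7.54 to 3.01.

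Over single lines, 5 of 9 factors (Nrg1, Npy, Mdk, Ptn and L1cam) had a range of 1 or more on the log2 scale, as did 15.9% of all genes. Between the TPC lines, Npy, Ptn and L1cam differed by at least 1 (11.2% of all genes). Between the TPAC lines, Nrg1 and Mdk did (3.87%). Of the pairs across genotypes, TPC18645 and K459 differed so in Nrg1 (4.34%), TPC20223 and K459 in Ptn and L1cam (10.9%), and TPC20223 and TCPA18654 in Npy, Mdk, Ptn and L1cam (10.9%). Each line has 1 array, so these differences have no replicate check. As a yardstick, 95% of the reference genes had a range of 0.57 or less, which Nrg4 exceeded at 0.75 while staying below the limit. Without TPC20223, 2 factors (Nrg1 and Mdk) kept such a range, and 3 separated by genotype (Nrg1 and Npy lower in TPAC, Fgf9 higher), where 61.5% of all genes separated with 1 TPC line against 2 TPAC lines.

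**Figure D4:**
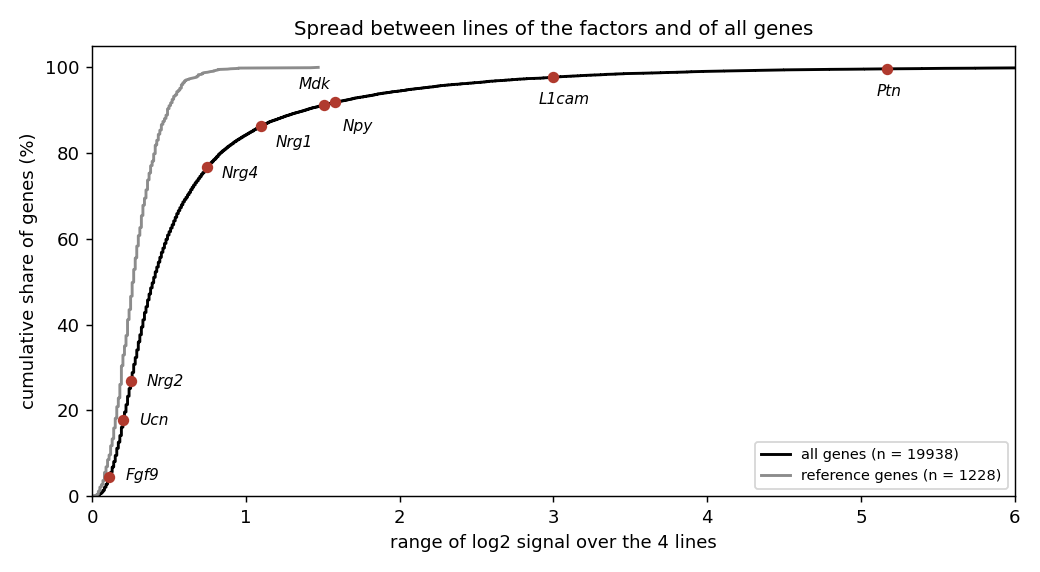
Cumulative share of genes (%) with a range of log2 signal over the 4 lines at or below the value on the horizontal axis, for all 19938 genes (black) and the 1228 reference genes (gray), with the factors as points. Ptn at 5.17 and L1cam at 3.0 lie at the far end of the curve, and Fgf9, Ucn and Nrg2 at its start.

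Genes with the most similar pattern over the 4 lines were sought among 15027 genes above the limit in at least 1 line, by the root mean square difference of values centred on each gene's own mean. For Ptn these were Svep1, an extracellular matrix protein, at 0.173, Sema3d, a secreted axon guidance protein, at 0.189, and Dlk1, a membrane protein with EGF-like repeats, at 0.219. For L1cam they were Pabpc1l2b at 0.0497, Wif1, a secreted inhibitor of Wnt proteins, at 0.0567, and Kcnip3 at 0.0618. Npy was closest to Trim6 (0.0402), the kinase gene Sik1 (0.0517) and Egfr (0.054). Nrg1 was closest to Lrrc28 (0.0192), Lpin2 (0.0255) and Abhd10 (0.0303), and Mdk to Cyp11a1 (0.113), Liph (0.203) and Cybrd1 (0.242). Among these 5 factors themselves, Nrg1 and Npy were nearest to each other (0.412), and Ptn and L1cam were 0.855 apart, since Ptn spans the wider range. These distances rest on 4 arrays and are a description.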

How the data were processed

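RNA of 4 mouse pancreatic tumor cell lines (2 TPC, 2 TPAC, 1 array each) was measured on Affymetrix Mouse Gene 1.0 ST arrays. The values the authors deposited are log2 signals from RMA. Affymetrix Expression Console 1.4 is named in the submitters' processing notes. A filter, an array batch and a genome build are not given in the sources used here. Columns of other samples were 0. Of 28941 transcript clusters, 21789 carry 1 symbol in the platform annotation, 1621 carry several and were not named, and 5531 are unnamed here. The brightest cluster stood for each gene, and 19938 genes were tested with no filter on low signal.

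The genotypes were compared with limma 3.58.1 under R 4.3.3 (lmFit, eBayes, two-sided, no covariate), and p values were adjusted over all genes by the Benjamini-Hochberg method. The call needed an adjusted p up to 0.05 together with a log2 difference of at least 0.58, thresholds the study states for TPAC against KPC cells. Only the limma fit was tested on simulated data, for the mean ratio of estimated to true differences. Tables and figures were made in Python 3.11.15 with pandas 2.3.3, NumPy 2.4.6 and matplotlib 3.10.9. The number of arrays limits the precision.

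The 10 factors, the 7 lists of receptors and partners and the 8 lists of markers were chosen with earlier results of these data known. Named genes were all factors. In each partner list they were the gene of highest mean signal and the 2 of largest genotype difference among genes above the limit in at least 1 line. For each factor with a range of 1 or more, the 3 genes of most similar pattern were named. Other genes, the comparison of ranges and the ranking of single lines were chosen after their values were seen. Some listed genes were not analysed here. Promoter windows are RefSeq's, of GRCm38.p6. The alternatives tried were cyclic loess, a common median per array, a filter on low signal, averaging the clusters of a gene, an intensity trend, the methods' test for 2 groups, a looser threshold, other limits for background, and leaving out each line in turn. With 1 line left out, the lone line of a genotype is taken to vary like the lines of the other.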

Additional observations from a re-analysis of the deposited data

How the results depend on the processing

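No factor, no receptor or partner gene and no gene at all was called between TPAC and TPC under any alternative run (0 each). No paired analysis was possible because the labels carry no replicate numbers that tie TPAC lines to TPC lines. With the 99th percentile of the reference genes as the limit, 2 factors (Nrg4 and Fgf9) were near background in all lines, and with the 40th percentile of all genes also 2, against 1 (Nrg4) in the report. An alternative was added after the data were seen: without TPC20223 (TPC replicate 2), 2 factors in place of 5 had a range of 1 or more. In that setting 3 in place of 0 separated, with 1 TPC line against 2 TPAC lines, where 61.5% of all genes did. Of 70 repeats of a factor's genotype difference, 56 kept its direction and 14 did not. Under cyclic loess that of Fgf9 was -0.01. The other reversals came from leaving out 1 line. Repeats with a common median per array, averaged clusters or the filter on low signal returned the same differences, so they do not check the direction. Without TPC18645 the log2 difference was -0.03 for Fgf9, 0.08 for Nrg1 and 0.04 for Nrg2. Without TPC20223 it was 0.07 for L1cam, -0.57 for Npy, -0.20 for Nrg4 and 0.22 for Ptn. Without K459 it was 0.24 for Nrg1, 0.10 for Nrg2, -0.06 for Nrg4 and 0.07 for Ucn. Without TCPA18654 it was -0.28 for Mdk and -0.13 for Npy. Over the 4 lines left out in turn, the difference ran from -0.03 to 0.09 for Fgf9, -2.90 to 0.07 for L1cam, -0.28 to 1.23 for Mdk, -0.57 to 1.01 for Npy, -0.76 to 0.24 for Nrg1, -0.14 to 0.10 for Nrg2, -0.20 to 0.53 for Nrg4, -4.75 to 0.22 for Ptn and -0.12 to 0.07 for Ucn. Counts by p from fits that leave 1 line in a genotype are not given, since a lone line cannot tell genotype from line. At an unadjusted p under 0.05, 0 of 67 receptor and partner genes became 3 under the methods' test and 2 with an intensity trend. Over all genes, the methods' test gave 8 higher and 7 lower at that p, against 38 and 46 by limma. With all 4 lines kept, the limma adjusted p of L1cam ran from 0.98 to 0.997. The causes were not tested. Depth is not defined for arrays. Signal near the reference genes limits what can be said of Nrg4, Fgf9 and the low values of Ptn and L1cam. Nrg2, Ucn and the lower values of Mdk lay at the level of markers of cell types that should be absent.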

Other observations

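Some genes of the receptor and partner lists that the naming rule did not select are given here, chosen after their values were seen. Lif, a cytokine that shares the receptor subunits Lifr and gp130 with Cntf, had log2 signals of 8.70 in TPC18645 and 7.36 in TPC20223, against 8.32 in K459 and 8.62 in TCPA18654. It was lowest in TPC20223, the line in which the receptor genes Cntfr and Lifr were highest (Lifr 10.44, against 9.11 to 9.29 elsewhere). Clcf1, another ligand of the Cntf receptor, was clear of the limit in all lines, at 8.94 to 9.73.

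K459 stood out in other members of these lists. Itga6, an integrin subunit that binds laminin, had 10.27 in TPC18645 and 10.73 in TPC20223, against 12.08 in K459 and 10.27 in TCPA18654. Fgfr4, a further FGF receptor, had 8.29 in K459 and 6.77 to 7.09 in the other lines. Nrp1, a semaphorin receptor that partners with L1cam, was higher in the near twins TPC18645 (10.17) and TCPA18654 (10.07) than in TPC20223 (9.30) and K459 (9.02), the order of lines also seen for Nrg1. None of these genes passed limma between genotypes (adjusted p of 0.989 each for Lif, Lifr, Clcf1, Itga6, Fgfr4 and Nrp1).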
